A study of Mus musculus with 10 samples.

Results

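The small leucine-rich proteoglycans are secreted proteins of the extracellular matrix whose core is a run of leucine-rich repeats. The 8 genes described here, *Dcn*, *Bgn*, *Lum*, *Fmod*, *Prelp*, *Ogn*, *Aspn* and *Podn*, were taken by symbol from a table of 55453 gene symbols, and the rule itself uses the symbols alone. All 8 had counts in every library, and all 8 passed the filter on low counts, which kept 14614 genes. Aortae of male C57BL/6 mice were compared at 14.5 weeks (young) and 92.5 weeks (old), with 5 mice per age and 1 library per mouse. The labels name no engineered allele and no drug for either group. The vessels were freed of the fat around them, and poly(A) RNA of the whole remaining wall was sequenced as stranded libraries. A bulk measurement of this kind mixes smooth muscle cells, endothelial cells, fibroblasts and immune cells, so that fewer cells of a type and less RNA per cell cannot be told apart. A single sex and strain were studied.

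As background, these proteins bind along collagen fibrils and help to set fibril diameter and spacing. Decorin (*Dcn*), biglycan (*Bgn*) and asporin (*Aspn*) form class I, in which decorin and biglycan carry chondroitin or dermatan sulphate chains and asporin does not. Lumican (*Lum*), fibromodulin (*Fmod*) and PRELP (*Prelp*) form class II, in which lumican and fibromodulin carry keratan sulphate or its unsulphated precursor. Osteoglycin (*Ogn*, also called mimecan) belongs to class III, and podocan (*Podn*) to a class of its own with a close relative, *Podnl1*. Decorin and biglycan also bind TGF-β, and soluble biglycan is a ligand of the Toll-like receptors. In the artery wall, biglycan and decorin are retained in the matrix beside the collagens.

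Most of the family lies in runs of neighbouring genes. In the GENCODE M21 annotation of GRCm38, *Dcn* (chr10:97479609-97518143) and *Lum* (chr10:97565128-97572703) were adjacent on the plus strand of chromosome 10, 47 kb apart, followed by the family genes *Kera* and *Epyc*. On the plus strand of chromosome 13, *Ecm2* (chr13:49504810-49532789), *Aspn* (chr13:49544443-49567565), *Omd* (chr13:49582462-49592822) and *Ogn* (chr13:49608046-49624501) followed each other with gaps of 11.7, 14.9 and 15.2 kb, all inside *Cenpp* on the opposite strand. On chromosome 1, *Optc* (chr1:133897199-133907999) lay 2.3 kb from *Prelp* (chr1:133910304-133921414), both on the minus strand, and *Fmod* (chr1:134037254-134048277, plus strand) lay 116 kb further on. *Bgn* (chrX:73483602-73495933, plus strand) and *Podn* (chr4:108014791-108096445, minus strand) had no family member beside them.

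The 250 bases before the start site of the 4 neighbours on chromosome 13 and of *Bgn* are shown because the former lie in 1 run and have log2 fold changes below 0, described further on, while *Bgn* was the most abundant member. They are RefSeq windows of GRCm38.p6, plus strand, read 5′ to 3′, and capitals mark matches on either strand to a TATA box (TATAAA), to the letters of a CCAAT box, or to a GC box (GGGCGG).
Ecm2, chr13:49504560-49504809: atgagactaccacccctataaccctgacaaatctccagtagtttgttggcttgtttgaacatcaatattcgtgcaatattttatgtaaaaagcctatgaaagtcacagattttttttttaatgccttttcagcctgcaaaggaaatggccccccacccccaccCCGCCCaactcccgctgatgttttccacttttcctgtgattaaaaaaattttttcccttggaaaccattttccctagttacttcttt
Aspn, chr13:49544193-49544442: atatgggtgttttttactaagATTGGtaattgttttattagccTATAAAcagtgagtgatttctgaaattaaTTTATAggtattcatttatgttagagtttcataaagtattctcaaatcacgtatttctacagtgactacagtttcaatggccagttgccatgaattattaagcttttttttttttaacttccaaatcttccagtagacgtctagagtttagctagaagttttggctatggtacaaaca
Omd, chr13:49582212-49582461: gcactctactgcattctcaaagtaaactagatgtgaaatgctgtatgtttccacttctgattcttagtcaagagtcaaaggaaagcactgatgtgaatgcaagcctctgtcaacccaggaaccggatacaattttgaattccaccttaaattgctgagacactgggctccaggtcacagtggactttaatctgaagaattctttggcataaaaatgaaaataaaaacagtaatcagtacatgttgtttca
Ogn, chr13:49607765-49608014: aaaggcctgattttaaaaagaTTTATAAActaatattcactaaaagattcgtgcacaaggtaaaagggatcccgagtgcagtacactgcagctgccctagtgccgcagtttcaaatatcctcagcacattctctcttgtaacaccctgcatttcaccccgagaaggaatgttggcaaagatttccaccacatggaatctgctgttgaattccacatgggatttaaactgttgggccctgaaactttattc
Bgn, chrX:73483351-73483600: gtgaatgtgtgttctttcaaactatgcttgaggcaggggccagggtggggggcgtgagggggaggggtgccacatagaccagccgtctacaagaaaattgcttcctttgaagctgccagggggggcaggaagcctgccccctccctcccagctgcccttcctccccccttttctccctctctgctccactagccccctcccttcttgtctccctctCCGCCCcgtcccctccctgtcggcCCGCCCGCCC

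The *Ecm2* window held 1 GC box match, beginning at position -87 from the start. The *Aspn* window held 1 CCAAT box and 2 TATA box matches, and the *Ogn* window held 2 overlapping TATA box matches on opposite strands, at positions -229 and -227. The *Omd* window held none of these motifs. The 3 GC box matches of *Bgn* began at positions -34, -10 and -6, and the last 2 overlap each other. Matches are common at this length, since 13.6% of 32851 RefSeq windows of 300 bases, which run 50 bases past the start, held the TATA box, 37.4% the CCAAT box and 35.7% the GC box. The AP-1 site (TGACTCA) and the E box (CACGTG), which occurred in 5.2% and 7.15% of all windows, were not found in the windows of the family. RefSeq windows were matched for 6 of the 8 members and 9 of 10 other family genes, and those of *Dcn*, *Lum* and *Podnl1* were not used here.

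Libraries held between 19640401 and 22886153 counts on genes. In old replicate 2, 11% of counts fell on mitochondrial transcripts, against 4.50% to 6.51% in the other 9. The log2 fold changes of *Lum*, *Bgn* and *Fmod* and the 4 ratios are also given without it. The correlations of members are not. Levels are given as normalized counts, which are counts divided by the library's DESeq2 size factor, with mean ± SD over 5 mice. Fold changes, their standard errors and adjusted p-values come from edgeR's quasi-likelihood test over all 14614 genes with Benjamini-Hochberg adjustment, and calls were made at an adjusted p below 0.05.

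The 8 members took a sizeable share of the aortic transcriptome at both ages. Together they held 1.25% to 1.31% of all counts in young aortae (median 1.30%) and 1.14% to 1.52% in old aortae (median 1.42%), with old replicate 2 the lowest. *Bgn* alone supplied 58.4% to 62.9% of the members' counts in young and 56.0% to 64.2% in old aortae. Without *Bgn*, the other 7 held 0.483% to 0.544% in young and 0.479% to 0.596% in old aortae. *Bgn* was the seventh most abundant of all tested genes by normalized count.

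Levels between genes were compared as normalized counts per kilobase of the principal transcript. In young aortae the order was *Bgn* (70276 ± 4946, SD, n = 5), *Dcn* (24615 ± 2160.2), *Ogn* (11898 ± 1299.6), *Prelp* (5912 ± 616), *Fmod* (2514 ± 475), *Lum* (2215 ± 215), *Aspn* (684 ± 95.5) and *Podn* (604 ± 68.3). Neighbours in this order were ranked alike in all 5 young aortae except for *Fmod* over *Lum* and *Aspn* over *Podn*, each seen in 4 of 5, and their SDs overlap. In old aortae the first 4 places were unchanged in every library, with *Bgn* at 72818 ± 10019.5 and *Dcn* at 29587 ± 3236 per kilobase. The fifth and sixth places were exchanged, with *Lum* (3302 ± 501) above *Fmod* (2328 ± 688) in 5 of 5 old aortae. *Podn* (691 ± 123) stood above *Aspn* (613 ± 65.7) in 4 of 5. The order depends on the length used: over all annotated exons, *Ogn* was above *Dcn* in 5 of 5 young and 4 of 5 old aortae.

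**Figure D1:**
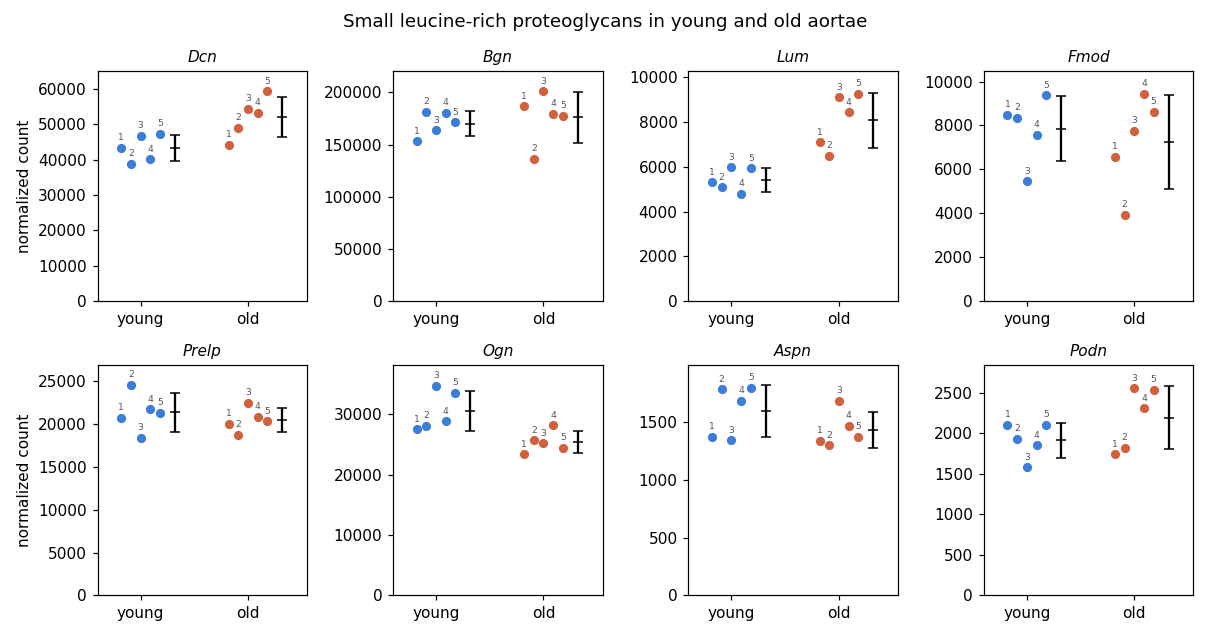
Normalized counts of the 8 members in each library (linear axes from 0), with 1 point per young or old mouse, its replicate number beside it, and mean ± SD as bars. The old *Lum* points all lie above the young ones, 6507 to 9266 against 4793 to 5980, and the groups of the other 7 genes overlap.

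Of the 8 members, 1 was called between old and young aortae, where 11.5% of all tested genes were. That gene, *Lum*, was called higher, as were 6.48% of all tested genes, and no member was called lower with edgeR, against 4.99% of all tested genes. At an unadjusted p below 0.05, 3 members differed, 2 higher (*Dcn*, *Lum*) and 1 lower (*Ogn*), where 26.7% of all tested genes did. DESeq2 called those 3, and 13.6% of the 17134 genes it tested. The groups did not overlap for 1 of 8 members, where this held for 9.92% of tested genes. The median log2 fold change of the 8 was 0.00298, beside 0.00339 for all tested genes, and 4 of 8 had a log2 fold change above 0.

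*Lum* encodes lumican, a keratan sulphate proteoglycan that regulates the assembly of collagen fibrils. Its normalized counts in the 5 young aortae were 5306, 5089.7, 5980.2, 4793 and 5945, and in the 5 old aortae 7104, 6507, 9108, 8436 and 9266. Every old aorta was above every young one, with old replicate 2 the lowest of the old. The mean went from 5423 ± 526 to 8084 ± 1227 (n = 5 each), with a log2 fold change of 0.58 (SE 0.10, 95% interval 0.36 to 0.81, edgeR adjusted p = 0.00296). The call held under all 20 alternatives, with log2 fold changes of 0.53 to 0.65, and without old replicate 2 the log2 fold change was 0.65 (edgeR adjusted p = 0.00102). *Lum* rose from 0.0248% to 0.0378% of all counts.

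*Dcn* encodes decorin, the founding member of the family, which binds collagen I and TGF-β. The young aortae had 43308, 38887, 46735, 40107 and 47328 normalized counts and the old aortae 44249, 48925, 54354, 53279 and 59264. Of the old aortae, 4 were above the highest young one and old replicate 1 lay among the young. The means were 43273 ± 3798 and 52014 ± 5689 (n = 5 each), with a log2 fold change of 0.27 (SE 0.09, 95% interval 0.08 to 0.46, edgeR adjusted p = 0.0634). This missed the threshold, and 5 of 20 alternatives passed it, DESeq2 (adjusted p = 0.0286) and the edgeR fit without old replicate 1 (adjusted p = 0.0299) among them.

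*Ogn* encodes osteoglycin, a class III member whose product also takes part in collagen fibril formation. Its normalized counts were 27496, 28093, 34733, 28833 and 33495 in young and 23347, 25692, 25191, 28133 and 24418 in old aortae. Here 4 old aortae were below the lowest young one, and old replicate 4 lay within the young range. The mean was 30529.9 ± 3335 in young and 25356 ± 1787 in old aortae (n = 5 each), a log2 fold change of -0.26 (SE 0.08, 95% interval -0.44 to -0.08, edgeR adjusted p = 0.0606). It too missed the threshold with edgeR and passed it with DESeq2 (adjusted p = 0.0155), and in edgeR fits without young replicate 1 (adjusted p = 0.0289) or without old replicate 4 (adjusted p = 0.0492).

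*Bgn*, the gene of biglycan, gave normalized counts of 153021, 181596, 163642, 180372 and 171358 in young and of 186761, 136095, 201063, 179373 and 177440 in old aortae. The old group held both the highest and the lowest library, the latter being old replicate 2. The means were 169998 ± 11965 and 176146 ± 24237 (n = 5 each), with a log2 fold change of 0.06 (SE 0.10, 95% interval -0.16 to 0.28, edgeR adjusted p = 0.762). Without old replicate 2 it was 0.13 (edgeR adjusted p = 0.274).

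The remaining 4 members had intervals that include 0. *Fmod*, whose product binds collagen I near lumican's site, ranged from 5456 to 9371 normalized counts in young and from 3929 to 9437 in old aortae, the widest relative spread of the 8. Its log2 fold change was -0.10 (SE 0.22, 95% interval -0.59 to 0.39, edgeR adjusted p = 0.816), and without old replicate 2, its lowest library, it was 0.05. *Prelp*, which encodes a protein that anchors basement membranes to the matrix, ranged from 18394 to 24608 in young and 18724 to 22484 in old aortae, and its log2 fold change was -0.05 (SE 0.08, 95% interval -0.22 to 0.12, edgeR adjusted p = 0.724). Of the exonic sequence of *Prelp*, 9.68% lay under *Gm15851* on the opposite strand.

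*Aspn*, the class I gene without a glycosaminoglycan chain on its product, ranged from 1340.0 to 1793 normalized counts in young and from 1295 to 1678 in old aortae. Its log2 fold change was -0.15 (SE 0.10, 95% interval -0.36 to 0.06, edgeR adjusted p = 0.366). *Podn* ranged from 1581 to 2105 in young and from 1741 to 2555 in old aortae, 3 of which were above the highest young one. Its log2 fold change was 0.20 (SE 0.12, 95% interval -0.05 to 0.46, edgeR adjusted p = 0.299).

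**Figure D2:**
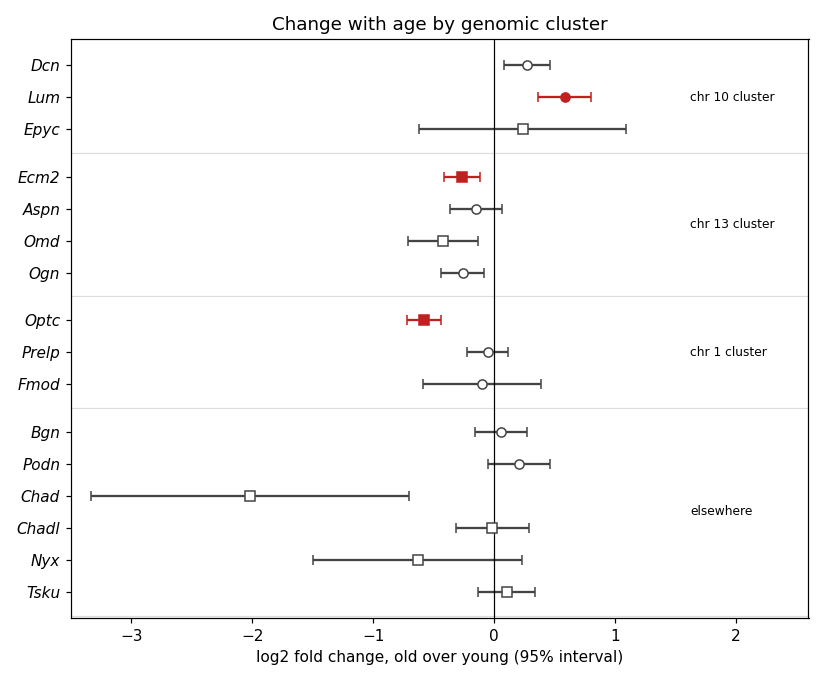
Log2 fold change of old over young aortae with 95% intervals for the tested genes of the family, in order of position. Circles are the 8 members, squares other family genes, and filled red symbols called genes. Among the 8 members, the intervals of *Lum* and *Dcn* lie above 0 and that of *Ogn* below 0, and *Lum* alone passed the adjusted threshold, while *Optc* and *Ecm2* were called lower.

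In the rest of the family, 8 of 10 genes were tested and 2 were called, both lower, where 11.5% of all tested genes were called. The median log2 fold change was -0.34. *Optc* encodes opticin, a class III member known from the vitreous of the eye, and fell from 2289 ± 151 to 1525 ± 118 normalized counts with no overlap (log2 fold change -0.58, SE 0.07, edgeR adjusted p = 0.000165). The young libraries held 2438, 2309, 2068, 2218 and 2409.9 and the old ones 1502, 1329, 1579, 1592 and 1621. *Ecm2*, whose product shares the leucine-rich repeats, fell from 6970.5 ± 616 to 5768 ± 234 with no overlap (log2 fold change -0.27, SE 0.07, edgeR adjusted p = 0.0231). Its call was lost without young replicate 3 (edgeR adjusted p = 0.0557), without young replicate 5 (0.052) and without old replicate 5 (0.0631).

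The other 6 tested genes were not called. *Omd*, the osteomodulin gene between *Aspn* and *Ogn*, stood at 453 ± 77.8 in young and 336 ± 54.0 in old aortae (normalized counts), which gave a log2 fold change of -0.42 (SE 0.13, edgeR adjusted p = 0.0586). *Chad*, which encodes the cartilage protein chondroadherin, had 36.1 ± 23.3 and 8.59 ± 8.07 (log2 fold change -2.02, SE 0.60, edgeR adjusted p = 0.0512), with young replicate 3 the highest at 73.8. DESeq2 called both *Omd* (adjusted p = 0.025) and *Chad* (adjusted p = 0.00726). *Tsku* (306 ± 50.2 and 327 ± 21.2), *Chadl* (84.8 ± 11.7 and 83.6 ± 9.19), *Nyx* (19.4 ± 2.8 and 12.6 ± 8.69) and *Epyc* (13.7 ± 7.2 and 16.0 ± 6.68) had edgeR adjusted p-values between 0.346 and 0.964. Genes on the opposite strand overlap 40.6% of the exonic sequence of *Epyc* and 19.5% of that of *Chadl*.

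*Podnl1*, the closest relative of *Podn* (chr8:84125989-84132527), did not pass the filter and was not tested with edgeR's main filter. Its raw counts were 0, 1, 1, 1 and 0 in young and 10, 11, 26, 20 and 18 in old aortae. All old libraries were above all young ones, with 85 counts against 3 and a ratio of 27.9 (95% counting interval 9.24 to 138). That interval pools the counts of the mice of each age and leaves out the spread between them, so it is not to be read as a test. *Podnl1* was singled out after its values were seen, and other filters kept it through the old group alone, so that these counts are a description with no test. *Kera*, the keratocan gene of the cornea, had 2 counts in old and 0 in young aortae and was not tested.

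Neighbours on a chromosome are set side by side. On chromosome 13, *Ecm2*, *Aspn*, *Omd* and *Ogn* had log2 fold changes of -0.27, -0.15, -0.42 and -0.26, and *Ecm2* alone of them was called with edgeR. On chromosome 10, *Dcn* and *Lum* had 0.27 and 0.58. On chromosome 1, *Optc*, *Prelp* and *Fmod* had -0.58, -0.05 and -0.10. The likeness of neighbours was not tested.

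Ratios of 2 genes within 1 library do not depend on its scaling, and show unequal change without telling which gene changed. For 4 of them, in normalized counts per kilobase, the difference in mean log2 ratio was put to the exact permutation test (two-sided) and adjusted over the 4. *Dcn* over *Bgn*, the class I pair, was 0.353 ± 0.0481 in young and 0.412 ± 0.0673 in old aortae (n = 5 each), with overlapping groups (log2 difference 0.22, exact p = 0.135, adjusted p = 0.135 by the permutation test). Without old replicate 2 the log2 difference was 0.15 (exact permutation p = 0.286). *Lum* over *Fmod*, the class II pair whose products bind collagen at shared sites, was 0.796, 0.778, 1.40, 0.807 and 0.809 in young and 1.38, 2.11, 1.49, 1.14 and 1.37 in old aortae. The ratio was 1.64-fold higher in old aortae (exact permutation p = 0.0317, adjusted p = 0.0423), and young replicate 3 lay among the old ones. That adjusted p is below 0.05 only because the 2 ratios to *Col1a1*, given below, are among the 4. Their difference could be foreseen from the authors' report of lower *Col1a1*. Without 1 of young replicates 1, 2, 4 or 5 the exact p was 0.0556, without young replicate 3 it was 0.00794, and without old replicate 2 it was 0.0397.

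The ratios of *Dcn* and *Bgn* to *Col1a1*, the gene of the main fibrillar collagen chain, were both higher in old aortae. *Dcn* over *Col1a1* went from 2.56 ± 0.612 to 5.87 ± 1.41 (2.29-fold, n = 5 each), and the groups did not overlap, at 1.98 to 3.55 and 4.66 to 7.86. *Bgn* over *Col1a1* went from 7.22 ± 1.07 to 14.1 ± 1.40 (1.97-fold), at 6.25 to 9.04 and 12.5 to 15.9. Each had an exact permutation p of 0.00794, the smallest possible here, and an adjusted p of 0.0159. The authors had already reported lower *Col1a1* in these old aortae, so these p-values do not test *Dcn* or *Bgn* apart from that fall. *Col1a1* itself fell from 58611 ± 8337 to 31070.2 ± 6754 normalized counts (log2 fold change -0.91, SE 0.15, edgeR adjusted p = 0.00277). The log2 fold changes of *Dcn* (0.27) and *Bgn* (0.06) were not called with edgeR. The *Bgn* ratio, with a log2 difference of 0.97, thus mostly restates the fall of *Col1a1*.

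**Figure D3:**
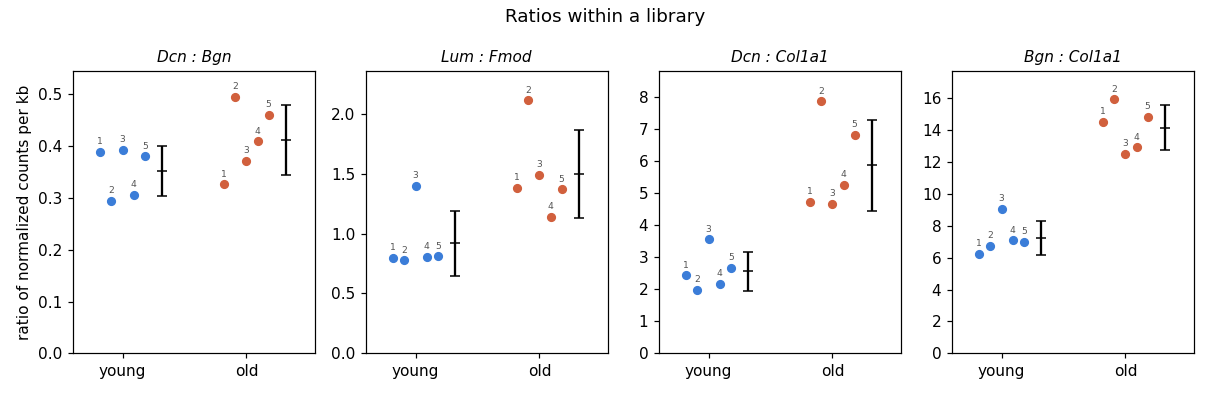
Ratios of normalized counts per kilobase for 4 gene pairs in each library, with 1 numbered point per young or old mouse and mean ± SD as bars. The 2 ratios to *Col1a1* separate the groups, the *Lum* to *Fmod* ratio does so except for young replicate 3 at 1.40, and the *Dcn* to *Bgn* ratio overlaps.

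The members also varied between mice of the same age. After the group means were removed, log2 normalized counts of the 28 pairs of members were correlated over the 10 mice, with exact permutation within the age groups. Pearson's r was above 0 for 21 pairs, and 6 pairs had a raw exact p below 0.05. After adjustment over the 28 pairs, 1 remained, *Prelp* with *Aspn* (r = 0.833, exact p = 0.000764, adjusted p = 0.0214). Spearman's rho of that pair was 0.891 (exact p = 0.0041, adjusted p = 0.0687), and r was 0.795 without the 2 mice farthest from the median of *Prelp*. It did not pass with library size alone as scaling.

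The neighbours *Dcn* and *Lum* had r = 0.860 (exact p = 0.00535, adjusted p = 0.0749) and rho = 0.842 (exact p = 0.00597, adjusted p = 0.0687), and r = 0.916 without the 2 mice farthest from the median. *Fmod* and *Podn* had r = 0.790 (exact p = 0.0131, adjusted p = 0.122) and rho = 0.794 (exact p = 0.0245). *Fmod* and *Prelp* had r = 0.632 (exact p = 0.0455), which rests on 2 mice, since r without them was -0.028. *Dcn* and *Bgn*, the class I pair, had r = -0.00584 (exact p = 0.99). Young replicate 3 was the lowest young library for *Fmod*, *Prelp*, *Aspn* and *Podn* and the highest for *Ogn*, and old replicate 2 the lowest old library for *Bgn*, *Lum*, *Fmod*, *Prelp* and *Aspn*. The part of RNA quality in these relations was not tested.

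**Figure D4:**
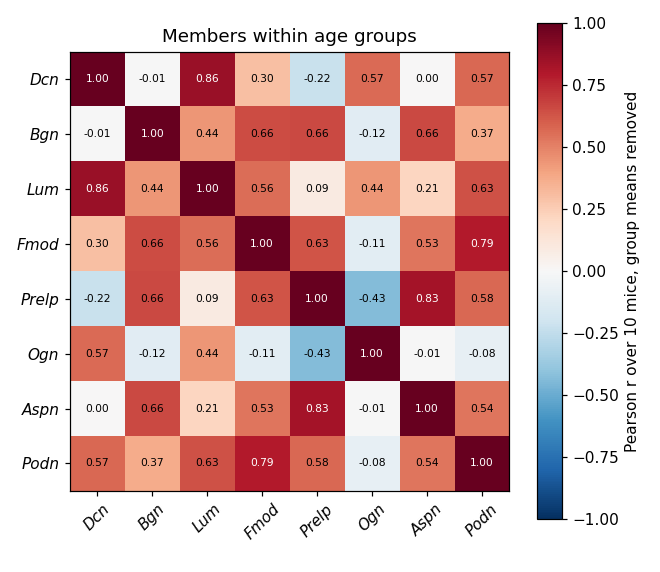
Pearson's r between the 8 members over 10 mice, after the age group means were removed, with the colour and the printed value giving r. *Dcn* with *Lum* (0.860) and *Prelp* with *Aspn* (0.833) have the 2 highest values, and *Dcn* with *Bgn* is at -0.00584.

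For each member, the tested genes outside the 8 with the most similar variation between mice were looked up by the same measure, on log2 CPM, as a description. *Bgn* varied most like *Igfbp7* (r = 0.990), *Sparc* (0.969) and *Aebp1* (0.968), of which *Sparc*, a collagen-binding glycoprotein gene, was called lower in old aortae (log2 fold change -0.96, edgeR adjusted p = 0.00018). *Prelp* varied most like *Mrc2* (0.971), a collagen uptake receptor gene, *Col14a1* (0.961) and *Reep2* (0.957). *Fmod* varied most like *Tiam1* (0.962), its chromosome 1 relative *Optc* (0.955) and *Pdgfrl* (0.946). *Podn* varied most like *Dpep1* (0.974), *Fbln1* (0.956) and *Lpar1* (0.954).

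*Dcn* varied most like *Ybx1* (0.945), *Kcnip3* (0.937) and *Spop* (0.913), and *Lum* most like *Fubp3* (0.966), *Lix1l* (0.957) and *Gm23833* (0.95). *Ogn* varied most like *Usp25* (0.953), *Evi5* (0.951) and *Ppp6c* (0.935), and *Aspn* most like *Stoml2* (0.964), *Srm* (0.963) and *Axl* (0.963). Each r is over 10 mice that share scaling and RNA quality, and the highest of many values is high by selection.

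Genes that act on or with these proteins were taken from lists by role. Calls in each list stand beside the 11.5% of all tested genes that were called. The collagens that the members bind had the largest share of called genes among these lists: 7 of 11 tested were called, all lower, with a median log2 fold change of -0.51. *Col3a1* fell from 76905 ± 7575 to 40179 ± 6460 normalized counts (log2 fold change -0.93, SE 0.11, edgeR adjusted p = 0.000241), and *Col6a1* from 19726 ± 2163 to 12632 ± 1404 (-0.63, SE 0.09, edgeR adjusted p = 0.000959). *Col1a1* is given above.

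Of 13 tested proteases and cofactors known to cleave or process matrix proteins of this kind, 2 were called higher and 2 lower. The share called over all tested genes was 11.5%. The median log2 fold change of the list was -0.186, and 3 of the 13 were above 0. At an unadjusted p below 0.05 with edgeR, 9 differed, 3 of them higher, where 26.7% of all tested genes did. *Mmp3*, stromelysin 1, rose from 3613 ± 556 to 7690 ± 1297 (log2 fold change 1.10, SE 0.13, edgeR adjusted p = 0.000251), and *Mmp9* from 98.6 ± 31.5 to 163 ± 38.3 (0.73, SE 0.22, edgeR adjusted p = 0.0465). *Pcolce2*, an enhancer of procollagen cleavage, fell from 4438 ± 396 to 2280 ± 451 (-0.95, SE 0.12, edgeR adjusted p = 0.000519), and *Adamts4*, an aggrecanase, from 78.9 ± 13.5 to 35.8 ± 10.4 (-1.13, SE 0.22, edgeR adjusted p = 0.00565).

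For the enzymes that build the sugar chains, the called genes are read against the 11.5% of all tested genes. In the list of linker and chondroitin or dermatan sulphate synthesis, 2 of 21 tested were called, both lower: *Xylt1*, which starts the chain (597 ± 55.7 to 425 ± 50.5, log2 fold change -0.48, edgeR adjusted p = 0.00472), and the chondroitin synthase *Chsy3* (379 ± 65.3 to 248 ± 44.3, -0.60, edgeR adjusted p = 0.0172). Of 4 tested keratan sulphate genes, the sulphotransferase *Chst2* fell (247 ± 41.9 to 156 ± 21.5, -0.65, edgeR adjusted p = 0.00657). Of 7 genes of sulphate supply, *Bpnt1*, a nucleotidase of that pathway, fell (731 ± 74.2 to 587 ± 21.1, -0.31, edgeR adjusted p = 0.0154). The medians of the 3 lists were -0.03, -0.42 and 0.02.

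Among 9 tested growth factors and matricellular proteins that bind the members or are bound by them, 1 was called higher and 4 lower. Over all tested genes 11.5% were called. The median log2 fold change of these 9 was -0.428, and 2 of them were above 0. *Tgfb1* rose from 772 ± 46.1 to 953 ± 93.8 (log2 fold change 0.31, SE 0.07, edgeR adjusted p = 0.0148). *Bmp6* (-1.13, SE 0.19, edgeR adjusted p = 0.00403), *Ccn2*, connective tissue growth factor (-0.76, SE 0.17, edgeR adjusted p = 0.0149), and *Bmp4* (-0.62, SE 0.16, edgeR adjusted p = 0.028) fell. Among 15 receptors 2 were called, where 11.5% of all tested genes were. *P2rx4* rose from 711 ± 34.7 to 857 ± 65.5 (0.28, edgeR adjusted p = 0.0155) and *Tlr4*, a receptor of soluble biglycan, fell from 971 ± 214 to 695 ± 40.4 (-0.48, edgeR adjusted p = 0.0435). *Tlr2*, of the same list, was not called. The median of the receptors was -0.07.

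Of 21 tested proteoglycans outside the family, 3 were called higher and 6 lower, where 11.5% of all tested genes were called. The large aggregating proteoglycans aggrecan (*Acan*, 709 ± 147 to 1196 ± 159, log2 fold change 0.76, edgeR adjusted p = 0.00527) and versican (*Vcan*, 4083 ± 781 to 5418 ± 545, 0.42, edgeR adjusted p = 0.0448) rose, as did the syndecan *Sdc3* (0.66, edgeR adjusted p = 0.00206). The glypican *Gpc6* (-0.64, edgeR adjusted p = 0.000165), agrin (*Agrn*, -0.35, edgeR adjusted p = 0.00229) and *Sdc1* (-0.42, edgeR adjusted p = 0.0209) fell. The median of this list was -0.02.

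**Figure D5:**
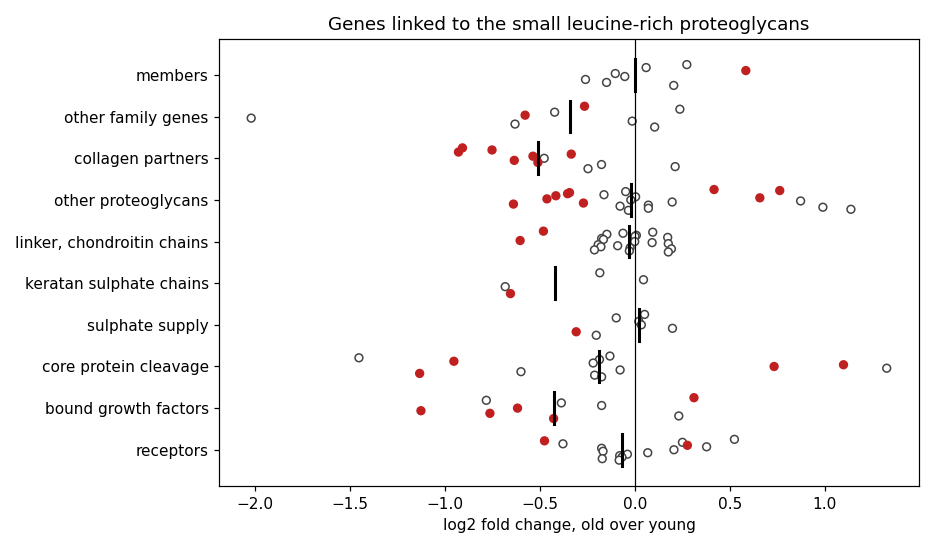
Log2 fold change of old over young aortae for each tested gene of the lists, 1 row per list, with called genes filled in red and the list median as a bar. The 8 members spread around 0 with a median of 0.00298, and the collagens lie mostly below 0 with a median of -0.51.

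Cell type markers, of which some were called, are given beside the members, with the 11.5% of all tested genes as background. Of 11 fibroblast markers, 3 (*Lox*, *Mfap4*, *Pi16*) were called lower, and their summed level was 146194 to 176507 normalized counts in young and 107347 to 154139 in old aortae, while *Gsn*, the most abundant, had a log2 fold change of -0.04. Of the fibroblast markers 5 had an unadjusted p below 0.05 and DESeq2 called 4. Of 9 macrophage markers, 5 (*Cd68*, *Adgre1*, *C1qa*, *C1qb*, *C1qc*) were called higher, with sums of 9377 to 12155 and 12448 to 24460 that do not overlap, and *Lyz2* was the most abundant. All 9 had an unadjusted p below 0.05, and DESeq2 called 9. Of 10 smooth muscle markers, *Smtn* was called higher, with sums of 828166.0 to 983633 and 765007 to 933209, led by *Acta2*, while 3 had an unadjusted p below 0.05 and DESeq2 called 2. Of 9 endothelial markers, *Tek* was called lower, with sums of 24326 to 39269 and 13813 to 27764, led by *Pecam1*. All 9 endothelial markers had a log2 fold change below 0 (median -0.60), 7 had an unadjusted p below 0.05, and DESeq2 called 5. The part of these cell types in the values of *Lum*, *Dcn* and *Ogn* was not tested.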

How the data were processed

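Poly(A) RNA of 10 mouse aortae was sequenced, 1 library per mouse. Per the labels and the study's methods, the authors trimmed reads with fastp 0.20.0, aligned them to GRCm38 with STAR 2.7.0f and counted them per gene with featureCounts of Subread 1.6.4. The deposited table holds these raw counts as whole numbers, without normalization, for 55453 gene symbols. The strand setting and the handling of reads with several alignments are not given in the sources used here, so that genes overlapping on opposite strands may share counts.

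The table was tested whole. Genes were filtered with filterByExpr at its defaults, which kept 14614 of 28011 with a count, and compared with edgeR 4.0.16 (R 4.3.3; robust quasi-likelihood F test, TMM scaling, group as the only term). Adjustment was by Benjamini-Hochberg over all tested genes. Intervals are 95% from the quantile of t with the fitted degrees of freedom. Levels are counts over DESeq2 1.42.0 size factors, and lengths and positions come from GENCODE M21. Alternatives were DESeq2, limma-voom 3.58.1 with and without quality weights, other scalings and filters, a threshold of 0.01, leaving out each mouse, and the replicate number as a block. The members and lists were chosen with earlier results of these data known. Within each list the called genes with the 3 smallest p-values in each direction were named, and all genes of the family. Libraries of 1 group differed 8.06 to 58.8 times more than counting error (chi-square over degrees of freedom, 20 pairs), so that each counts as a sample, and intervals on counts cover counting error only. The scripts were tested on simulated data.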

Additional observations from a re-analysis of the deposited data

Results flagged for a closer look

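The ratio of *Lum* to *Fmod* (normalized counts per kilobase) was 1.40 in young replicate 3, far above the other 4 young aortae, which lay between 0.778 and 0.809. The gap took 0.951 of the range of the young group, past Dixon's 95% limit for 5 samples. Of 40 groups examined 1 was singled out in this way, and chance alone singles out about 1 in 20. In that library *Fmod* was the lowest of the young (5456 normalized counts) and *Lum* the highest (5980.2). The summed endothelial markers were also highest there, at 39269 normalized counts, and their part in the ratio was not tested.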

How the results depend on the processing

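For the 8 members, 160 alternatives were set beside the main fit, 20 per gene. In each 20, 1 was the main fit read at the threshold of 0.01, so its direction could not change. Of the 160, 149 kept direction and side of the threshold and 10 passed it (5 each for *Dcn* and *Ogn*). In 1, the direction turned, for *Fmod*, whose log2 fold change ran from -0.22 to 0.049 (0.049 without old replicate 2) when single mice were left out. The cause was not tested. *Lum* was called in all. The number of members called was 3 with DESeq2, 3 with limma-voom and quality weights, 3 without the filter on low counts, 2 with upper-quartile factors, and 1 to 2 when single mice were left out. Genes called in all were 1676, with 2643 under quality weights and 658 at the threshold of 0.01. With library size alone, 0 pairs of members passed in the correlations at the adjusted threshold, against 1.

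The replicate numbers did not pair the mice: same-numbered mice had correlations of -0.3 to 0.132 (5 pairs) and other pairs -0.199 to 0.249, and 4 of 10 mice correlated best with their own number. With the replicate number as a block, 1261 genes and 1 member were called, the edgeR adjusted p of *Ecm2* was 0.0675, and the log2 ratio differences were 0.72 (*Lum* to *Fmod*), 1.20 (*Dcn* to *Col1a1*) and 0.97 (*Bgn* to *Col1a1*), where 5 pairs allow no exact p below 0.0625. The *Lum* to *Fmod* difference ran from 0.59 to 0.88 when single mice were left out.

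Depth limits *Podnl1*, *Kera*, *Nyx* and *Epyc*, with means under 20 normalized counts in both groups. Depth also limits *Chad*, at a mean of 8.59 in old aortae, and its log2 fold change was -1.585 without young replicate 3. For the 8 members the spread between mice sets the precision.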

Other observations

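The tested genes of the chondrocyte marker list all had log2 fold changes above 0 (median 0.88). Of 10 chondrocyte markers 6 were tested and 4 were called (4 also by DESeq2), where 11.5% of all tested genes were, and all 4 were higher: *Hapln1*, which links aggrecan to hyaluronan (120.2 to 281 normalized counts, log2 fold change 1.23), the transcription factor *Sox9* (46.7 to 93.2, 1.00), *Acan* (0.76) and *Comp* (1551 to 2122, 0.46), with edgeR adjusted p-values of 0.032 or less. Their summed level was 2031 to 2946 in young and 3312 to 4597 in old aortae, without overlap, and *Cnmd*, *Matn1* and *Ucma* had fewer than 3 counts in every library. *Chad* and *Epyc*, family genes also known from cartilage, had log2 fold changes of -2.02 and 0.24 and were not called with edgeR.

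Of 8 adipocyte markers, edgeR called 0, while 4 had an unadjusted p below 0.05 and DESeq2 called 1; their sums were 3603 to 13073 in young and 2042 to 5452 in old aortae, led by *Pck1*. Of 5 tested skeletal muscle markers, edgeR and DESeq2 called 0 and 1 had an unadjusted p below 0.05, with sums of 209 to 1219 and 228 to 289, led by *Ckm*. Of 6 tested Schwann cell markers, *Prx* was called higher and *Pmp22*, the most abundant, lower (3 had an unadjusted p below 0.05 and DESeq2 called 2), with sums of 5372 to 7132 and 4547 to 5207. *Pmp22* alone, with means of 4917 in young and 3716 in old aortae, made up most of these sums. The median log2 fold change of the tested Schwann cell markers was 0.196, and 4 of the 6 were above 0.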
